A study of Mus musculus with 407 samples.

Results

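The levels of 10 genes of autophagy and mitophagy were followed through the ageing of 4 mouse muscles. They were taken by name from the count tables of the series (Map1lc3a, Map1lc3b, Sqstm1, Gabarapl1, Bnip3, Ulk1, Becn1, Tfeb, Ctsl and Lamp2), and all 10 were found among 24458 gene symbols. Total RNA of male and female C57BL/6J mice, an inbred strain, bought at different ages and with no treatment named in the labels, had been sequenced from the diaphragm, gastrocnemius, soleus and tibialis anterior at 6 ages (6, 12, 18 and 21 months, then 24 and 27 months). The series held 98 libraries of diaphragm, 104 of gastrocnemius, 103 of soleus and 102 of tibialis anterior, in 48 groups of sex, muscle and age with 6 to 10 libraries each. Per the labels, tissues of an age group were taken on a single day, so age and collection day cannot be told apart. Muscles of a single mouse cannot be matched from the labels. The total count of a library ran from 38583802 to 300089909, with a median of 72766895.

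Autophagy encloses part of the cytoplasm in a growing membrane, the phagophore, which closes into a vesicle and fuses with a lysosome, where the content is degraded. In mitophagy the content is a mitochondrion, marked by a receptor on its outer membrane. Skeletal muscle is known for a high rate of both, which rises in fasting and after denervation. The 10 genes cover the steps of the pathway. Ulk1 encodes the kinase that starts vesicle formation (chr5:110784488-110810097, minus strand, mm10), and Becn1 a subunit of the lipid kinase complex that follows it (chr11:101285952-101302286, minus strand). Map1lc3a (chr2:155276297-155278073, plus strand), Map1lc3b (chr8:121590361-121598760, plus strand) and Gabarapl1 (chr6:129533160-129542346, plus strand) encode ubiquitin-like proteins of the ATG8 family that are coupled to the vesicle membrane. Sqstm1 encodes a receptor that ties ubiquitinated cargo to the ATG8 proteins (chr11:50199366-50210827, minus strand), and Bnip3 a mitophagy receptor (chr7:138890836-138909519, minus strand). Tfeb encodes a transcription factor of lysosomal genes (chr17:47737030-47792419, plus strand). Ctsl encodes the lysosomal protease cathepsin L (chr13:64359337-64370890, minus strand) and Lamp2 a protein of the lysosomal membrane (chrX:38401357-38456454, minus strand). Becn1, Map1lc3b and Gabarapl1 overlap a counted gene on the opposite strand (Cntd1, Zcchc14 and 1700101I11Rik), and the libraries kept the strand. The counts measure transcripts, not the turnover of vesicles.

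RefSeq held promoter windows, from 250 bases before to 50 after the start, for 8 of the 10 genes. The windows of 3 genes are shown: Bnip3 and Ctsl because they are the members whose window held a motif that was searched, and Gabarapl1 because its level moved most closely with that of Bnip3 in the limb muscles. Capitals mark the E-box CACGTG, the core of the motif that Tfeb and related factors bind.

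Bnip3 (chr7:138909457-138909756, minus strand, GRCm38.p6): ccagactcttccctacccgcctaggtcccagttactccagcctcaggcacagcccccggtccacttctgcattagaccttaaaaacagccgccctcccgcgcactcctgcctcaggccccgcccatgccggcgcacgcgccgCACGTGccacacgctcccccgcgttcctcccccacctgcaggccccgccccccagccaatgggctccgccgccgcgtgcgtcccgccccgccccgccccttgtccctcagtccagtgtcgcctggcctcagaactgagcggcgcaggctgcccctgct

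Ctsl (chr13:64370471-64370770, minus strand, GRCm38.p6): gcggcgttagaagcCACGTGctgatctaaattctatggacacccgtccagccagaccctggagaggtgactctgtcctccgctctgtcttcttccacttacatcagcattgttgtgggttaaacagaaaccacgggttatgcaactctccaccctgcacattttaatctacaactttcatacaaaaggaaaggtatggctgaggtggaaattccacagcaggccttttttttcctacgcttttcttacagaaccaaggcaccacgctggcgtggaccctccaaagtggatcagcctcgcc

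Gabarapl1 (chr6:129532942-129533241, plus strand, GRCm38.p6): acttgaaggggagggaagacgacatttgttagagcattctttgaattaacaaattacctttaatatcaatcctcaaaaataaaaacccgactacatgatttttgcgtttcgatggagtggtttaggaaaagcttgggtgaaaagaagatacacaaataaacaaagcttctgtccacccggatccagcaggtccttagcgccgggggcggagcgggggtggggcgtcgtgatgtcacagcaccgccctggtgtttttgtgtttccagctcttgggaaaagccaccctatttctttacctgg

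Counted from the RefSeq start, the E-box lay 108 bases before it in Bnip3 and 236 bases before it in Ctsl. The Ctsl window lay wholly inside the gene span given above, which is from GENCODE and starts at 64370890 on the minus strand. By that annotation the E-box of Ctsl is within the gene, not before its start. The letters CACGTG, which read the same on both strands, occurred in 7.15% of 32851 mouse promoter windows of this length. The longer TCACGTGA, which contains the E-box, and the FoxO motif GTAAACA, searched on both strands, were in no member's window, and in 0.97% and 3.65% of all windows. A match describes letters and does not show binding.

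Before any result, 3 kinds of library need to be named. In a GC score, the mean log2 level of the 10% of 11732 genes with the most GC minus that of the 10% with the least, 11 libraries stood apart: 7 of diaphragm lay more than 0.5 below the median of their muscle, down to -4.6 against a median of -0.76, and 4 of gastrocnemius lay above it, up to 0.75 against -0.51. Map1lc3a (63.1% GC), Tfeb (61.9%) and Ulk1 (59.4%) were among the GC-rich genes and Lamp2 (40.9%) among the GC-poor ones. In the library with the lowest score, male diaphragm at 6 months number 2, Tfeb was at 0.052 CPM (counts scaled to a common library size) from 2 counts and Map1lc3a at 0.262 CPM, against medians of 17.1 and 24.3 CPM in its group. Across the 98 diaphragm libraries the deviation of Tfeb from its group mean correlated with that of the GC score at r = 0.97, that of Map1lc3a at 0.96 and that of Lamp2 at -0.78, values that share depth and library preparation. In the 309 limb libraries these correlations were 0.51, 0.52 and -0.63. In 20 libraries the sum of 8 liver markers was over 10 times the median of the muscle. The deepest library was among these 20, and so was 1 of the 11 apart in GC score. Lastly, the libraries numbered 8 of males at 27 months differed from the rest of their group in all 4 muscles, as given below. The tests of age, sex and muscle were run with and without these libraries. Group medians, ranges, levels by sex and marker sums by age are of all libraries. Correlations between genes were also run without the libraries apart in GC score and number 8, but not without those with liver transcripts. Skeletal muscle markers (Acta1, Ckm, Des, Ttn, Mb) were above 0 in every library.

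**Figure D1:**
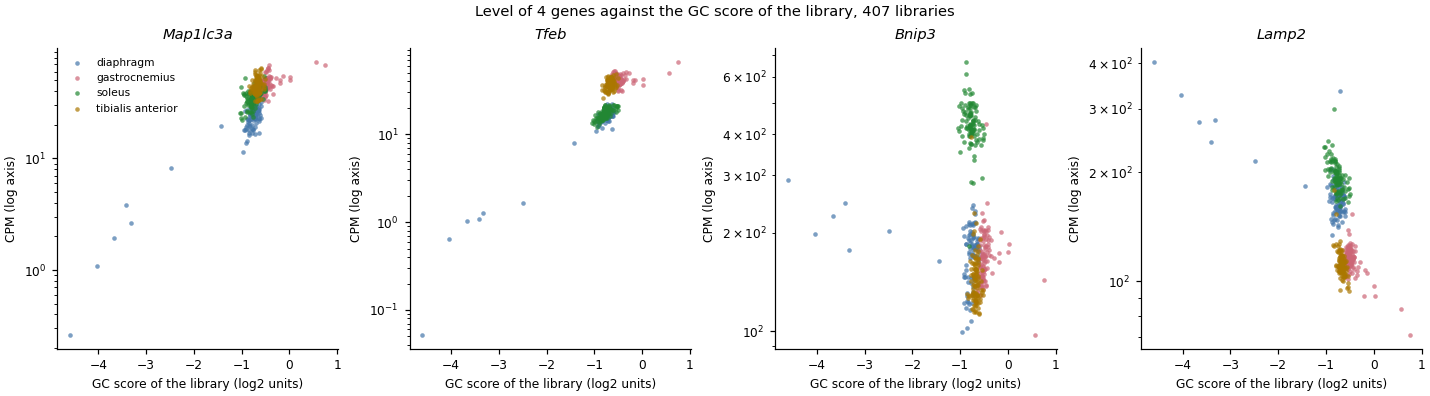
Level of Map1lc3a, Tfeb, Bnip3 and Lamp2 (CPM, log axis) against the GC score of the library (log2 units), 1 point per library, coloured by muscle. The 7 low diaphragm libraries trail to the left, where Map1lc3a and Tfeb drop to 0.262 and 0.052 CPM and Lamp2 reaches 405 CPM, while Bnip3 spans a narrower range.

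The muscles differed most in the mitophagy receptor and in the ATG8 gene Gabarapl1. In bulk muscle RNA, fewer cells of a type and less RNA per cell cannot be told apart. Bnip3 was at 432 ± 63.9 CPM in soleus (SD, n = 103), against 175 ± 34.7 in diaphragm (n = 98), 171 ± 36.0 in gastrocnemius (n = 104) and 146 ± 33.1 in tibialis anterior (n = 102). Bnip3 was 3.00-fold higher in soleus than in tibialis anterior (log2 difference 1.58, SE 0.031, edgeR quasi-likelihood test, Benjamini-Hochberg adjusted p = 1.38e-164). The fit across muscles took all libraries as independent. Muscles of a single mouse may be among them, and the SE and p leave any such pairing out. The lowest soleus library, at 182 CPM, lay within the range of the other muscles. Gabarapl1 followed the same order, with 87.7 ± 20.8 CPM in soleus, 41.1 ± 7.51 in diaphragm, 37.4 ± 8.47 in gastrocnemius and 28.3 ± 8.68 in tibialis anterior, and a log2 difference of 1.65 (SE 0.039) between the first and the last.

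Tfeb, Ulk1, Becn1, Map1lc3a and Sqstm1 had their highest levels in the fast limb muscles and their lowest in diaphragm. Tfeb was at 42.1 ± 5.30 CPM in gastrocnemius and 37.4 ± 4.51 in tibialis anterior, against 17.7 ± 2.27 in soleus and 15.5 ± 4.35 in diaphragm. Tfeb was 2.38-fold higher in gastrocnemius than in soleus, and its log2 difference between diaphragm and gastrocnemius was -1.44 (SE 0.057). Without the libraries apart in GC score, Tfeb in diaphragm averaged 16.5 ± 2.13 CPM (n = 91). Sqstm1, the cargo receptor, was at 381 ± 75.99 CPM in gastrocnemius, 356 ± 59.7 in tibialis anterior, 270.4 ± 27.1 in soleus and 158 ± 39.6 in diaphragm. Its level in diaphragm was 0.42 times that in gastrocnemius (adjusted p = 5.67e-129). The kinase gene Ulk1 (112 ± 22.7 CPM in tibialis anterior, 51.3 ± 13.4 in diaphragm), Map1lc3a (46.4 ± 7.92 in gastrocnemius, 22.6 ± 6.70 in diaphragm) and Becn1 (23.6 ± 1.54 in gastrocnemius, 13.3 ± 1.63 in diaphragm) were also lowest in diaphragm. Diaphragm libraries held less of the skeletal muscle markers too. Their mean sum was 74120 CPM there, against 232300 in gastrocnemius, 218500 in tibialis anterior and 177100 in soleus. The mean sum of macrophage markers was 351 CPM in diaphragm and 106.5, 78.2 and 131.6 in those muscles. That of fibroblast markers was 1628 CPM against 902, 746 and 1094. The part of these sums in the levels was not tested.

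The lysosomal genes and Map1lc3b had their own orders. Lamp2 was at 195 ± 20.2 CPM in soleus and 176 ± 39.6 in diaphragm, against 115 ± 10.1 in gastrocnemius and 112 ± 10.6 in tibialis anterior. Ctsl ran from 50.9 ± 9.59 CPM in gastrocnemius to 66.3 ± 11.4 in soleus, and Map1lc3b from 86.6 ± 8.73 in soleus to 116 ± 13.9 in tibialis anterior. The highest muscle mean was 1.30 times the lowest for Ctsl and 1.34 times for Map1lc3b, the smallest ratios of the 10 genes. Set per kilobase of exon, so that genes can be compared, Bnip3 in soleus (191 CPM per kb) and Sqstm1 in gastrocnemius (114 CPM per kb) were the most abundant members, and Becn1 in diaphragm (1.88 CPM per kb) the least.

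Of 60 tests, over 10 genes and 6 muscle pairs, 54 were called at an adjusted p below 0.05. The counts were 8 of 10 for diaphragm against gastrocnemius, where 88.7% of all 17580 genes were called, 9 for diaphragm against soleus (85.0%), 10 for diaphragm against tibialis anterior (88.8%), 10 for gastrocnemius against soleus (79.0%), 7 for gastrocnemius against tibialis anterior (66.2%) and 10 for soleus against tibialis anterior (78.9%). Most members and most genes were thus called, so the sizes given above describe the members more than the calls do. Neighbours that were not told apart were diaphragm and gastrocnemius for Map1lc3b and Bnip3, diaphragm and soleus for Ctsl, and gastrocnemius and tibialis anterior for Map1lc3a, Ulk1 and Lamp2. The median difference over all genes was 0.016 to 0.171 in these pairs, and DESeq2 size factors moved it by at most 0.097.

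**Figure D2:**
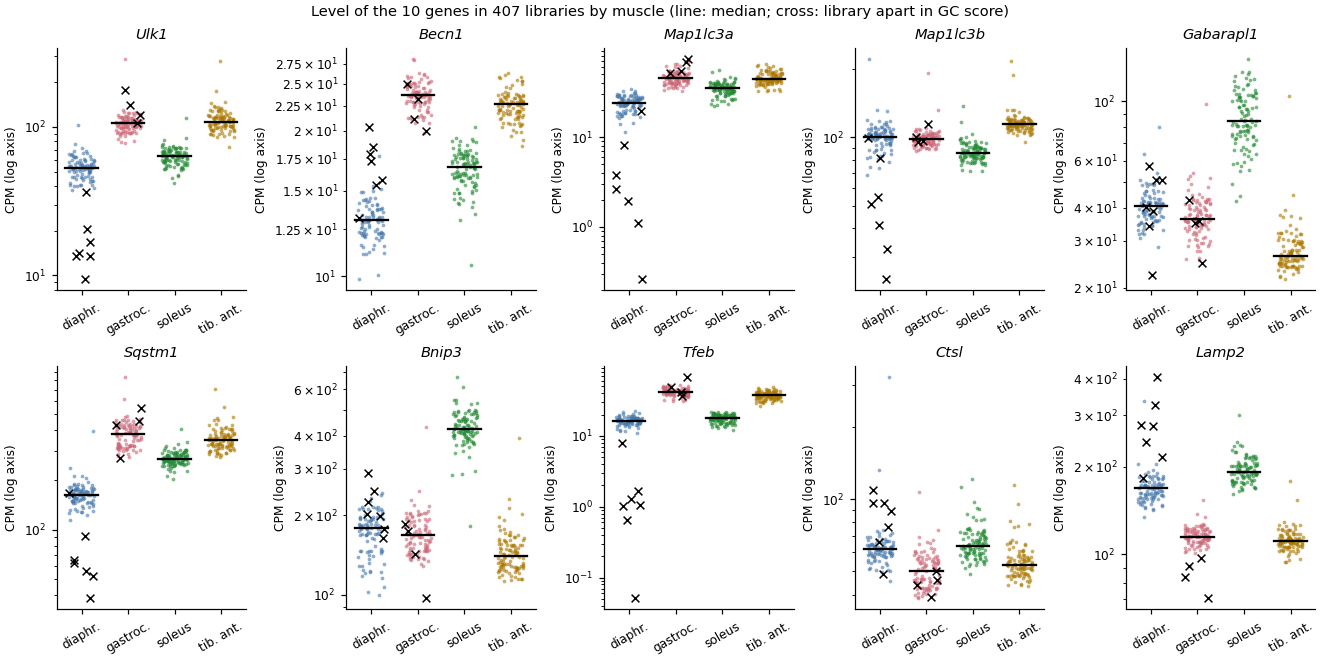
Level of each of the 10 genes (CPM, log axis) in all libraries by muscle, 1 point per library, with a line at the median and a cross for each library apart in GC score. Bnip3 and Gabarapl1 peak in soleus (means 432 and 87.7 CPM), Tfeb in gastrocnemius (42.1 CPM), and the low diaphragm points of Tfeb, Map1lc3a and Ulk1 are crosses.

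With age, the gene that rose most widely was Map1lc3a. At 27 months it was higher than at 6 months in all 6 limb comparisons (3 muscles in 2 sexes), by 1.27- to 1.38-fold. In male gastrocnemius it ran from 38.2 to 50.9 CPM at 6 months (median 41.4, n = 8) and from 50.7 to 69.0 CPM at 27 months (median 59.5, n = 10), and 9 of the 10 oldest libraries lay above every youngest one. The log2 change was 0.45 (SE 0.071, adjusted p = 3.38e-06 by edgeR, as for all changes with age below). Female gastrocnemius went from a median of 36.9 CPM (32.5 to 44.9) to 51.5 (42.4 to 73.8), a log2 change of 0.46 (SE 0.067, adjusted p = 5.11e-07). The groups touched in both sexes, by 1 male and 3 female libraries of 27 months. The highest female library, at 73.8 CPM, was apart in GC score. The alternatives included leaving such libraries out and the GC score as a term. Across them the log2 change ran from 0.437 to 0.507 in males and from 0.341 to 0.465 in females.

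In tibialis anterior, Map1lc3a went from 41.7 CPM (37.2 to 46.4) to 55.5 (43.8 to 63.4) in males and from 33.6 (32.5 to 42.9) to 46.8 (38.8 to 64.9) in females. The log2 changes were 0.41 (SE 0.069, adjusted p = 2.79e-05) and 0.46 (SE 0.070, adjusted p = 1.98e-06). In soleus Map1lc3a went from 31.7 CPM (26.2 to 36.3) to 38.7 (33.9 to 52.5) in males and from 27.1 (22.3 to 33.8) to 33.5 (26.7 to 55.0) in females, with log2 changes of 0.35 in both (SE 0.096 and 0.091, adjusted p = 0.0309 and 0.00443). In the female soleus 5 of the 10 oldest libraries lay within the range of the youngest. Across the alternatives, tibialis anterior ran from 0.404 to 0.451 in males and 0.44 to 0.533 in females. Soleus ran from 0.347 to 0.404 in males and 0.298 to 0.364 in females.

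The course of Map1lc3a over the ages differed between groups. It was called higher in 0 of 8 comparisons at 12 and at 18 months, in 4 at 21 and at 24, and in 6 at 27. Its median in male gastrocnemius was 41.4, 44.3, 47.2, 47.3, 49.4 and 59.5 CPM in order of age, with the largest step last. In female gastrocnemius it was 36.9, 36.9, 39.4, 43.1, 46.6 and 51.5. From 12 to 27 months, the log2 changes against 6 months were 0.018, 0.258, 0.227, 0.17 and 0.41 in male tibialis anterior. In male soleus they were 0.101, 0.176, 0.221, 0.164 and 0.35. Female soleus reached its highest median at 24 months (38.6 CPM) and stood at 33.5 at 27. In diaphragm the medians moved within 22.8 to 27.5 CPM in males and 18.6 to 26.9 in females, with no steady direction.

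Sqstm1, the receptor that is itself degraded with its cargo, was higher at 27 months in 5 of the 6 limb comparisons. In male tibialis anterior it went from 349.8 CPM (326 to 396) to 446 (355 to 703), a log2 change of 0.42 (SE 0.076, adjusted p = 7.54e-05), and 8 of the 10 oldest libraries lay above every youngest one. In male soleus it went from 243 CPM (224 to 263) to 288 (252 to 403), with 9 of 10 above, a log2 change of 0.31 (SE 0.060, adjusted p = 0.00103). Male gastrocnemius (0.30, SE 0.081, adjusted p = 0.00492), female gastrocnemius (0.29, SE 0.059, adjusted p = 0.000206) and female tibialis anterior (0.23, SE 0.057, adjusted p = 0.0021) changed by less. Female soleus, at 0.13 (SE 0.051, adjusted p = 0.0775), was not called. In each male limb muscle the highest Sqstm1 library at 27 months was number 8. The smallest male change under any alternative was 0.33 in tibialis anterior, 0.26 in soleus and 0.21 in gastrocnemius. The medians of Sqstm1 in male gastrocnemius stayed between 392 and 452 CPM at all ages, and those at 12 and 27 months were nearly the same (451.6 and 451.8).

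**Figure D3:**
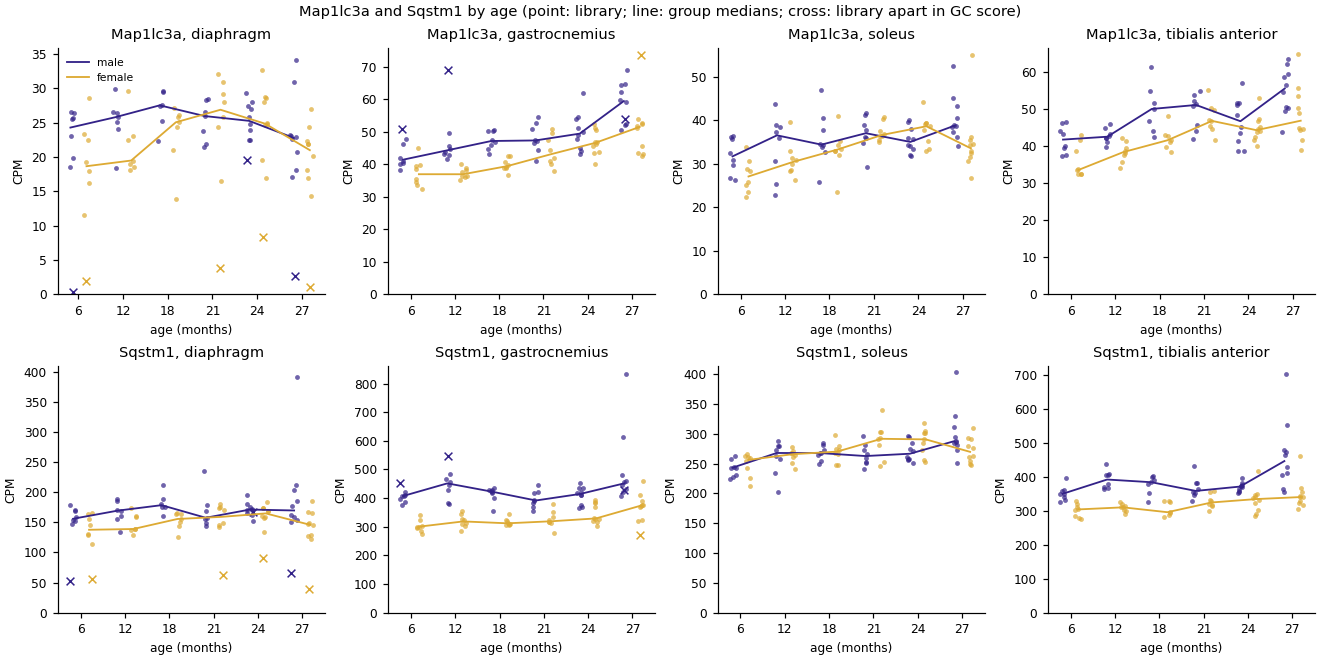
Level of Map1lc3a (top) and Sqstm1 (bottom) in CPM on a linear axis from 0 against age in months, 1 point per library, with lines through the group medians of males and females and a cross for each library apart in GC score. Map1lc3a medians climb from 41.4 to 59.5 CPM in male and 36.9 to 51.5 in female gastrocnemius, and diaphragm shows no such climb.

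The other members called higher were Gabarapl1, Bnip3, Ctsl, Lamp2 and Map1lc3b. Gabarapl1, Bnip3, Lamp2 and Map1lc3b were called higher in males alone with all libraries, but without the libraries apart in GC score Gabarapl1 (0.28), Bnip3 (0.15) and Lamp2 (0.098) were called higher in female gastrocnemius too, and the change differed between the sexes by test for Bnip3 in tibialis anterior alone. Gabarapl1 was higher in male gastrocnemius (30.8 CPM, 28.6 to 36.0, against 39.5, 31.8 to 98.0) and in male tibialis anterior (26.4 CPM, 23.6 to 30.2, against 32.6, 25.5 to 105). Its log2 changes of 0.50 (SE 0.132, adjusted p = 0.00415) and 0.61 (SE 0.156, adjusted p = 0.00462) were the largest called among the members. The highest library was number 8 in both muscles, and without it the changes were 0.32 in both (adjusted p = 0.0113 and 0.0112). Bnip3 was higher in the same muscles of males, by 0.38 (SE 0.101, adjusted p = 0.00434) and 0.48 (SE 0.113, adjusted p = 0.00175). In male tibialis anterior it went from 146 CPM (138 to 156) to 186 (143 to 392), and 7 of the 10 oldest libraries lay above every youngest one. Without number 8 its changes were 0.25 and 0.32, both still called.

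Of the lysosomal genes, Ctsl rose in male gastrocnemius (0.37, SE 0.095, adjusted p = 0.0031), male tibialis anterior (0.37, SE 0.113, adjusted p = 0.0182) and female tibialis anterior (0.29, SE 0.073, adjusted p = 0.00324). In female tibialis anterior it went from 53.5 CPM (52.6 to 59.1) to 63.9 (51.5 to 95.3), with 8 of the 10 oldest libraries above every youngest one. Male gastrocnemius went from 43.4 CPM (41.3 to 46.7) to 46.6 (44.8 to 107.6), with 5 of 10 above, and its change was 0.24 without number 8. In male tibialis anterior the call was lost without number 8 (0.22, adjusted p = 0.0763). Ctsl in male soleus, with medians of 56.7 and 77.3 CPM, was not called by edgeR (0.38, SE 0.117, adjusted p = 0.0605) and was by DESeq2 (adjusted p = 0.0295). Lamp2 rose in male gastrocnemius (0.23, SE 0.063, adjusted p = 0.00697) and fell in female soleus (-0.15, SE 0.050, adjusted p = 0.0323). Lamp2 went from 105 CPM (90.95 to 110.6) to 117.8 (96.85 to 153.4) in male gastrocnemius and from 205 (186 to 224) to 189.8 (166 to 192) in female soleus, with overlap in both. Map1lc3b rose in male tibialis anterior alone among the 8 comparisons (0.28, SE 0.086, adjusted p = 0.0163), and not without number 8 (0.18, adjusted p = 0.0578).

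Beside Lamp2, 3 members fell, each in 1 comparison. In female tibialis anterior, Bnip3 fell (-0.15, SE 0.051, adjusted p = 0.0218), from 147 CPM (123 to 168) to 129 (113 to 145), and Tfeb fell (-0.17, SE 0.057, adjusted p = 0.0274), from 41.8 (37.7 to 48.9) to 36.1 (30.2 to 42.01). The call of Tfeb was lost without the libraries with liver transcripts (-0.14, adjusted p = 0.119) and with the GC score as a term (-0.13, adjusted p = 0.124). Becn1 fell in male gastrocnemius, from 23.9 CPM (23.6 to 25.9) to 22.7 (20.7 to 25.03), with 7 of the 10 oldest libraries below every youngest one (-0.099, SE 0.035, adjusted p = 0.0359) and was not called without number 8 (-0.067, adjusted p = 0.142). Ulk1 was called in none of the 8 comparisons by edgeR, DESeq2 or limma-voom, and had an unadjusted p under 0.05 in 1.

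In diaphragm no member was called in either sex by edgeR's test. One member in each sex had an unadjusted p under 0.05, Ctsl in males (0.62, SE 0.222, adjusted p = 0.0688) and Gabarapl1 in females (-0.24, SE 0.090, adjusted p = 0.182). DESeq2 called Ctsl in males (adjusted p = 0.0475) and limma-voom called no member. The male value of Ctsl rested on number 8, at 323 CPM against 57.8 to 109 in the other 9, and was 0.15 without it. The SE of Map1lc3a was 0.313 in male and 0.332 in female diaphragm, against changes of 0.046 and 0.080. Without the libraries apart in GC score the changes were -0.016 (SE 0.104, adjusted p = 0.937) and 0.045 (SE 0.146, adjusted p = 0.894). Ctsl in female diaphragm was below the lowest youngest library (61.1 CPM) in 9 of the 10 oldest ones, with medians of 67.9 and 58.7, and the highest oldest library, at 96.6, was apart in GC score. With all libraries its change was -0.20 (SE 0.106, adjusted p = 0.391), and without those apart in GC score it was -0.29 (SE 0.069, adjusted p = 0.0105).

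Over the 8 comparisons of 27 with 6 months, members were called higher in 20 of 80 tests and lower in 4. All 10 passed the filter on low counts in each. In male gastrocnemius 6 were higher, where 10.6% of all genes were, and 1 was lower (12.6%). In male tibialis anterior 6 were higher (9.97%) and 0 lower (7.81%). Male soleus had 2 higher (1.80%) and 0 lower (1.05%). Females had 2 higher (14.6%) and 0 lower (14.6%) in gastrocnemius, 1 higher (10%) and 1 lower (8.74%) in soleus, and 3 higher (12.1%) and 2 lower (9.84%) in tibialis anterior. In diaphragm 0 were called, where 5.13% of all genes were higher and 3.52% lower in males and 0.624% and 0.988% in females. The members' median log2 change was 0.26 in male gastrocnemius and 0.33 in male tibialis anterior, where the median of all genes was -0.003 and 0.007, and 0.054 and 0.052 in the same muscles of females (0.019 and 0). Without number 8 the members' median was 0.20 in both male gastrocnemius and male tibialis anterior (all genes 0.010 and 0.003), and in male soleus it went from 0.13 to 0.056.

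**Figure D4:**
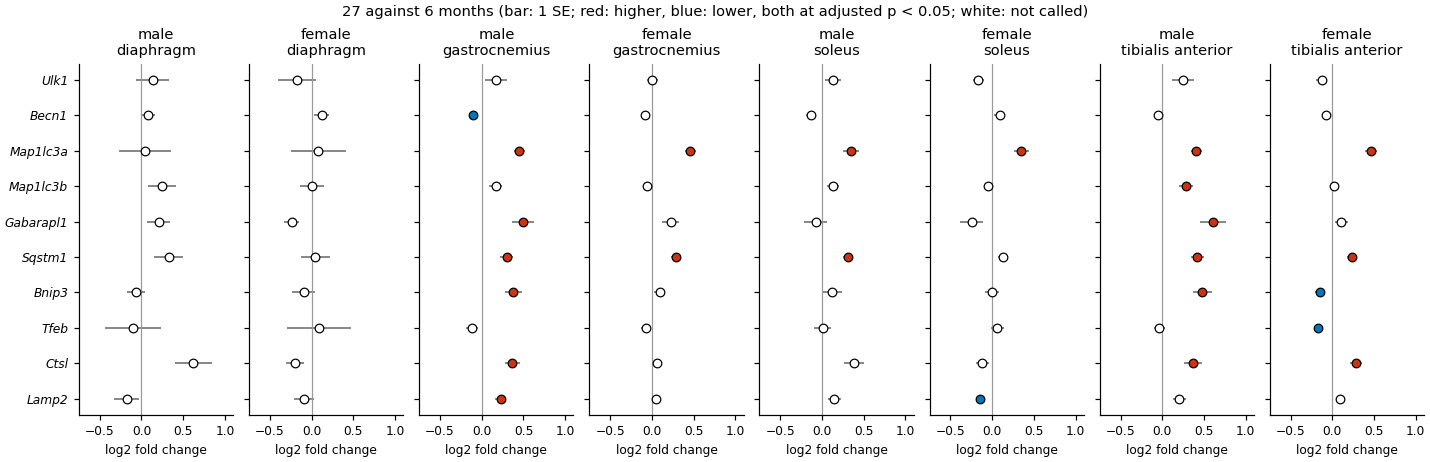
Log2 change from 6 to 27 months of the 10 genes in the 8 comparisons of sex and muscle, with bars of 1 SE, red for higher and blue for lower at an adjusted p below 0.05, white for not called. Map1lc3a is red in all 6 limb panels (0.35 to 0.46), male gastrocnemius and tibialis anterior hold 6 red points each, and both diaphragm panels are white.

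The libraries numbered 8 of males at 27 months shared a pattern across muscles. Map1lc3b, Gabarapl1, Sqstm1, Ulk1 and Ctsl were above all 9 other libraries of their group in every muscle, and Bnip3 and Lamp2 in the 3 limb muscles. In gastrocnemius, Ulk1 was at 287 CPM (92.1 to 126 in the others), Sqstm1 at 832 (408 to 615), Bnip3 at 431 (169 to 247) and Map1lc3b at 191 (90.2 to 131). In tibialis anterior, Gabarapl1 was at 105 CPM (25.5 to 44.6) and Ulk1 at 279 (85.0 to 175). In diaphragm, Ctsl was at 323 CPM (57.8 to 109) and Map1lc3b at 220.3 (54.7 to 130.4), whereas Bnip3, at 139, lay within the range of the others (136.5 to 238). Map1lc3a, Becn1 and Tfeb were not above the others in any muscle, and Becn1 was below all 9 in the 3 limb muscles. The GC scores of these libraries lay within 0.5 of the median of their muscle. Their macrophage marker sums, of 11 genes, were within or below the range of the others (108 CPM in gastrocnemius, 101 to 288 in the others). In gastrocnemius and soleus the sums of all 7 marker lists lay within the range of the others. In tibialis anterior number 8 was below all 9 others in macrophage (37.9 CPM against 40.55 to 113), fibroblast (398 against 449.6 to 808.5), fast fibre (69750 against 71880 to 90470) and slow fibre markers (59.2 against 63.1 to 99.9). In diaphragm it was below them in fast fibre (7654 CPM against 9618 to 19400), slow fibre (1373 against 1420 to 2461), adipocyte (25.2 against 26.4 to 215) and liver markers (9.00 against 11.03 to 10860). The part of these lists in the pattern was not tested. Whether the 4 libraries came from a single mouse is not given by the labels.

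**Figure D5:**
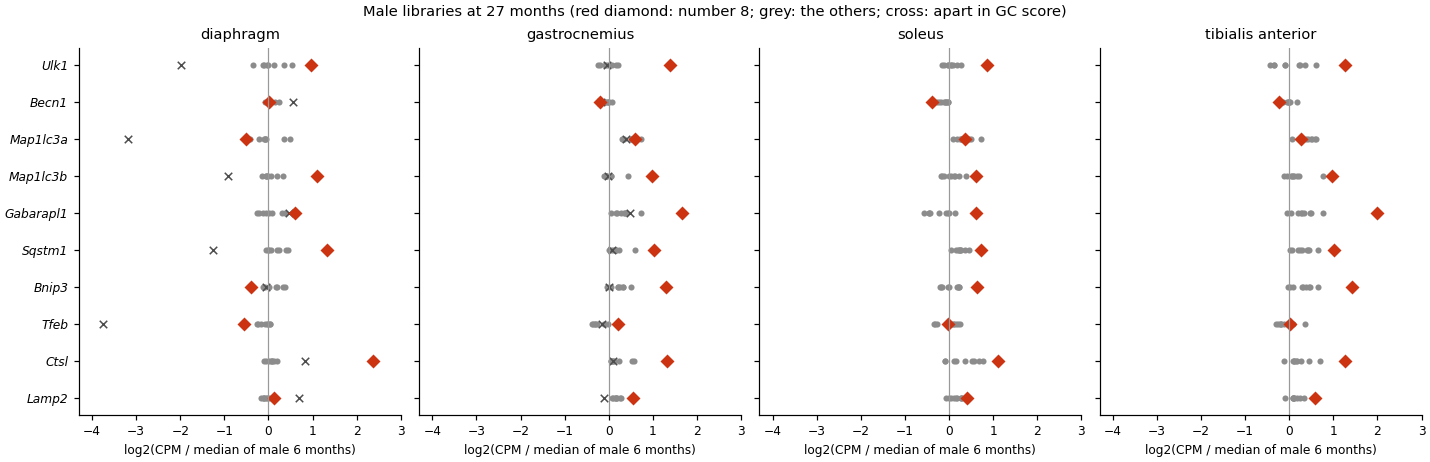
Log2 of CPM over the median of male 6-month libraries for the 10 genes in male libraries at 27 months, by muscle, with number 8 as a red diamond, the other 9 in grey and those apart in GC score as crosses. The diamond lies to the right of the others for 5 genes in all 4 muscles, and among them for Map1lc3a.

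Sums of cell type markers also moved with age. The median sum of 7 fibroblast markers at 27 months was 0.49 to 0.70 times that at 6 months in the 8 comparisons. That of 11 macrophage markers was 1.08 to 1.57 times in 7 of them and 0.69 times in female soleus. Slow fibre markers reached 1.35 times in female gastrocnemius, where fast fibre markers were at 0.77 times. Adipocyte markers were at 0.61 to 1.51 times, liver markers at 0.30 to 5.38 times and the skeletal muscle markers at 0.91 to 1.34 times. No list had a gene at 0 in every library, and their part in the changes above was not tested.

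Taken over all 6 ages, 24 of 80 tests were called. By muscle, 7 members differed among ages in male gastrocnemius (28.6% of all genes), 6 in male tibialis anterior (25.4%), 5 in female tibialis anterior (25.1%), 3 in female gastrocnemius (35.5%), 2 in female soleus (23.0%) and 1 in male soleus (4.42%). None was called in male (7.79%) or female diaphragm (3.93%). Sqstm1 was called in 6 of the 8, Map1lc3a in 5, Ctsl in 4, Bnip3 in 3 and Gabarapl1 in 2. Bnip3 in female tibialis anterior had its step early, at medians of 147 CPM at 6 months and 122 to 130.0 from 12 months on (adjusted p = 0.00296 over the ages). Ctsl in female gastrocnemius dipped, from 56.6 CPM at 6 months to 49.5 at 18 and 57.3 at 27 (adjusted p = 0.000472).

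The sexes differed in level in 19 of 40 tests, averaged over age. In gastrocnemius 8 members were called (58.3% of all genes), in tibialis anterior 6 (47.8%), in soleus 3 (30.9%) and in diaphragm 2 (18.9%). Sqstm1 and Bnip3 were higher in males in 3 muscles. In gastrocnemius Sqstm1 was at 431 ± 72.3 CPM in males and 332 ± 37.7 in females (n = 52 each; log2 difference 0.37, SE 0.030, adjusted p = 6.69e-20), and Bnip3 at 191 ± 39.6 and 152 ± 16.3 (0.31, SE 0.037). In tibialis anterior the differences were 0.27 and 0.31, and in diaphragm 0.22 and 0.24, where that of Sqstm1 was not called without number 8. Ulk1 and Map1lc3a were higher in males in gastrocnemius (0.17 and 0.19) and tibialis anterior (0.15 for each). Tfeb (-0.18 and -0.19) and Ctsl (-0.32 and -0.16) were lower in males in the same 2 muscles. Lamp2 was lower in males in gastrocnemius (-0.11), and Becn1 was higher there by 0.034, a call lost without the libraries with liver transcripts (0.029, adjusted p = 0.134). In soleus 3 members were called. Gabarapl1 was lower in males (79.3 ± 18.0 CPM against 96.2 ± 20.0, log2 difference -0.29, SE 0.058), as was Ulk1 (-0.11), and Map1lc3b was higher (0.076).

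Whether the change from 6 to 27 months differed between the sexes was tested in each muscle, and 1 of 40 tests was called. Bnip3 in tibialis anterior rose in males and fell in females, a difference of 0.64 (SE 0.124, adjusted p = 0.001). It was the single member called there (1.73% of all genes), and 0 were called in gastrocnemius (1.60%) and soleus (0.855%). The difference was 0.47 without number 8 (adjusted p = 0.00166), and was called under each alternative. In gastrocnemius the same difference was 0.31 (SE 0.124, adjusted p = 0.188). Ctsl in soleus, at 0.51 (SE 0.146, adjusted p = 0.0655), was not called by edgeR but was by DESeq2 (adjusted p = 0.031). In diaphragm 0 of 16613 genes were called by edgeR (0%), 993 had an unadjusted p under 0.05, and DESeq2 and limma-voom called 10 and 0.

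Whether the change differed between muscles was tested against gastrocnemius within each sex, and 1 of 60 tests was called. Lamp2 in male diaphragm changed by 0.38 less than in gastrocnemius on the log2 scale (value -0.38, SE 0.116, adjusted p = 0.0313; 5.76% of all genes called). This call was lost without the libraries apart in GC score (-0.25, adjusted p = 0.115), in whose lowest Lamp2 stood at 405 CPM, and without number 8 (-0.34, adjusted p = 0.0786). It was kept with DESeq2 size factors (-0.41, adjusted p = 0.0187) and without the libraries with liver transcripts (-0.49, adjusted p = 0.00159). For Map1lc3a, the same difference in male diaphragm was -0.39 (SE 0.246, adjusted p = 0.419), and became -0.49 (SE 0.137, adjusted p = 0.0156) without the libraries apart in GC score. In female diaphragm it was -0.36 (SE 0.246) with them and -0.31 (SE 0.135, adjusted p = 0.186) without. No member was called in male soleus (0.848%), male tibialis anterior (0.0171%), female diaphragm (2.37%), female soleus (4.59%) or female tibialis anterior (0.501%). A limma-voom fit with the replicate number as a block called Gabarapl1 in male soleus (-0.51, SE 0.134, adjusted p = 0.0217) and female diaphragm (-0.43, SE 0.135, adjusted p = 0.0497), and not Lamp2. A call in a limb muscle and none in diaphragm was for most members not a difference that passed this test.

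The members also varied within groups of the same sex, muscle and age. Over the deviations from group means, 11 of 45 pairs of members correlated at r above 0.5 in all libraries 10 in the 396 that were not apart in GC score and 5 without number 8 too, values in which the points share library and depth. Map1lc3a and Tfeb, the GC-richest members, fell from 0.93 to 0.44 when those libraries were left out. Gabarapl1 and Bnip3 moved together in gastrocnemius (0.77), soleus (0.68) and tibialis anterior (0.76) and were at -0.12 in diaphragm. Without GC-apart libraries and number 8 these were 0.66, 0.65, 0.56 and 0.021. Map1lc3b and Ulk1 were at 0.73 without the GC-apart libraries and 0.61 without number 8 too. Ctsl and Lamp2, the lysosomal pair, were at 0.56, 0.61 and 0.66 in the 3 sets. Among 12265 genes, those most like Bnip3 in all libraries were Zfand5 (0.80), Insr (0.77) and Lrrc2 (0.76). For Sqstm1 in the 396 libraries it was Psmd11 (0.83), which encodes a proteasome subunit, and for Ctsl Gclm (0.66), which encodes a subunit of the enzyme that makes glutathione. In the same 396 libraries the gene most like Map1lc3a was Des (0.73), which encodes the muscle filament desmin. For Tfeb it was Ipo13 (0.70), for Map1lc3b Fbxo31 (0.74), for Gabarapl1 Fam134b (0.64), for Lamp2 Cp (0.67) and for Becn1 Eif5a (0.59). Without number 8 too, Psmd11, Des, Ipo13 and Eif5a were again first for their member, and the gene most like Ctsl was Lamp2 (0.66).

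The pathway's other genes, 72 in 10 lists, were read beside the members. Over the same 8 comparisons of 27 with 6 months they were called higher in 54 of 576 tests (9.38%) and lower in 41 (7.12%), close to the shares of all genes, 8.01% and 7.32% of 122668 tests. By comparison, 8 of 72 were higher (11.1%) and 11 lower (15.3%) in male gastrocnemius, and 12 (16.7%) and 10 (13.9%) in female gastrocnemius. In tibialis anterior 12 were higher (16.7%) in each sex, and 5 (6.94%) lower in males and 7 (9.72%) in females. The shares of all genes in these 4 comparisons, given above, were 9.97% to 14.6% higher and 7.81% to 14.6% lower. The median change of the 72 genes was -0.009 in male gastrocnemius and 0.043 in male tibialis anterior. The lysosome list was called higher in 24 and lower in 6 of 144 tests, the cargo receptors in 6 and 1 of 48, the lipid kinase complex in 6 and 3 of 56. Conjugation enzymes were higher in 3 and lower in 8 of 80 tests, the initiation complex in 3 and 7 of 32, mitophagy genes in 3 and 5 of 56, and transcription factors in 1 and 4 of 40. Vesicle fusion genes were called in 4 and 4 of 48, phagophore growth genes in 3 and 3 of 56 and the other ATG8 genes in 1 and 0 of 16. In either direction, 20.8% of tests were called in the lysosome list and 31.2% in the initiation complex, against 15.3% over all genes, and 6.25% to 16.7% in the other 8 lists.

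In all, 13 of these genes were called in the same direction in at least 3 of the 8 comparisons. The share of all genes that met this rule was not computed, so the count has no background beside it. The values that follow are of all libraries, so those of males include number 8, and its part in them is not given by gene. Atp6v1h, a subunit of the proton pump that acidifies lysosomes, rose in 5 comparisons, by 0.48 in male gastrocnemius, 0.52 in male soleus and 0.55 in male tibialis anterior. Uvrag, a partner of Becn1 in the lipid kinase complex, rose in 5, up to 0.38 in female gastrocnemius (adjusted p = 2.86e-09). Hexa, a lysosomal enzyme that breaks down gangliosides, rose in 5, and Gaa, which breaks down glycogen in lysosomes, in 4 (0.32 in female tibialis anterior, adjusted p = 3.94e-07). Nbr1, a cargo receptor related to Sqstm1, rose in 4, and so did Plekhm1, which tethers vesicles to lysosomes. Ctss, a protease of antigen-presenting cells, rose in 3 with the largest changes, 1.30 in male diaphragm and 1.09 in female tibialis anterior, where the macrophage marker sums were at 1.57 and 1.31 times those at 6 months. Foxo4, a forkhead factor, fell in 4 comparisons (-0.29 in male gastrocnemius, adjusted p = 1.83e-05). Ulk2, the paralog of Ulk1, fell in 3 (-0.27 in male gastrocnemius), as did Atg4c, a protease that processes ATG8 proteins, and Psap, a precursor of lysosomal activators. Wipi1 and Atg13, which act in phagophore growth and initiation, rose in 3 each, up to 0.32 for Wipi1 in female gastrocnemius.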

How the data were processed

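Per the labels and the study's methods, strand-specific total RNA libraries were made after removal of ribosomal RNA and sequenced as paired ends, and the authors counted reads per gene with the ArrayStudio pipeline on mm10 with an in-house RefSeq gene model. The deposited files hold these raw counts, 1 file per library. Of 25091 rows, 633 that repeat a symbol were left out (0.0335% of all counts). CPM are counts over the library total times its TMM factor, so their spread carries counting error too. The main test was edgeR's quasi-likelihood test (edgeR 4.0.16, R 4.3.3) on genes kept by filterByExpr, with Benjamini-Hochberg adjustment over all genes and calls at an adjusted p below 0.05. Each sex and muscle was fitted with all 6 ages, the sexes within a muscle, and the muscles over all libraries. Alternatives used DESeq2 1.42.0 and limma-voom 3.58.1, other filters and thresholds, a replicate block, and left-out libraries. The alternatives on GC score, on number 8 and the limma-voom block were chosen after seeing the data. The scripts were tested on simulated data. The 10 members and the lists of other genes were chosen with earlier results of these data known. The other pathway genes named are those called in the same direction in at least 3 of the 8 comparisons. The labels do not say that same-numbered samples are separate animals or that they share one across muscles, and p-values measure the spread between samples. GC content and gene coordinates are from the GENCODE annotation of GRCm38, which is mm10. Promoters are from RefSeq on GRCm38.p6. Values of the rat samples were not analysed here.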

Additional observations from a re-analysis of the deposited data

Results flagged for a closer look

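In 51 of 160 sets of gene and group at 6 and 27 months, the highest or lowest library lay farther from its nearest neighbour than Dixon's 95% limit allows, where chance flags about 1 in 20. Of these, 25 were libraries apart in GC score and 18 were number 8 of males at 27 months. All values are CPM.

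Number 8 of males at 27 months was the highest in diaphragm for Ctsl (322.6), Map1lc3b (220.3) and Sqstm1 (391.9). In gastrocnemius it was the highest for Bnip3 (430.9), Ctsl (107.6), Gabarapl1 (97.97), Lamp2 (153.4), Map1lc3b (191.1), Sqstm1 (832.4) and Ulk1 (287.2). In soleus it led for Bnip3 (667.1), Gabarapl1 (124.6), Sqstm1 (403.3) and Ulk1 (114.2), and in tibialis anterior for Bnip3 (392.1), Ctsl (114.4), Gabarapl1 (105.2) and Ulk1 (278.7).

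Among diaphragm libraries apart in GC score, male 6 months number 2 was the lowest for Ctsl (48.7), Gabarapl1 (22.28), Map1lc3a (0.262), Map1lc3b (23.93), Sqstm1 (52.61), Tfeb (0.052) and Ulk1 (14.13) and the highest for Bnip3 (290.3) and Lamp2 (404.8). Female 27 months number 0 was the lowest for Map1lc3a (1.097), Map1lc3b (32.45), Sqstm1 (38.7), Tfeb (0.647) and Ulk1 (9.395) and the highest for Becn1 (20.33), Ctsl (96.6) and Lamp2 (326.3). Female 6 months number 2 was the highest for Lamp2 (275.9) and the lowest for Sqstm1 (56.56), and male 27 months number 6 the highest for Becn1 (18.46) and Lamp2 (278.9) and the lowest for Tfeb (1.271). In gastrocnemius, female 27 months number 0 was the lowest for Lamp2 (83.84) and the highest for Map1lc3a (73.75), and male 6 months number 6 the highest for Ulk1 (140.3).

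Other libraries stood out in 8 sets. In female soleus at 27 months, number 0 was the lowest for Bnip3 (293.2) and Gabarapl1 (44.34) and the highest for Map1lc3a (54.95), and number 9 the highest for Ctsl (91.0). In female tibialis anterior, number 7 at 27 months was the highest for Ctsl (95.35) and Sqstm1 (461.7), and number 0 at 6 months for Becn1 (25.82). In male tibialis anterior at 27 months, number 6 was the highest for Tfeb (45.25).

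The change with age differed between groups by edgeR's test of the difference: Bnip3 in tibialis anterior between the sexes (0.637 on the log2 scale, adjusted p = 0.001) and Lamp2 between male diaphragm and gastrocnemius (-0.375, adjusted p = 0.0313). The call of Lamp2 was lost without the libraries apart in GC score (-0.25, adjusted p = 0.115), without number 8 (-0.34, adjusted p = 0.0786) and with limma-voom. It was kept with DESeq2 size factors (-0.41, adjusted p = 0.0187) and without the libraries with liver transcripts (-0.49, adjusted p = 0.00159).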

How the results depend on the processing

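No called value of a member turned its direction under any alternative run. Members called higher at 27 months numbered 20 with the replicate block and 18 without male 27 months replicate 8; those called lower numbered 3 in both. A Bonferroni adjustment left 5 higher and 0 lower, 9 and 3 of the other pathway genes, 4 over the ages, 10 between sexes and 0 for muscle by age. A fold above 1.5 left 1 higher and 0 lower, 3 and 0 of the pathway genes, 1 over the ages, 26 between muscles, 0 for muscle by age and 0 between sexes. Muscle by age gave 2 calls with DESeq2 size factors (Lamp2 and Bnip3 in male diaphragm), 0 with limma-voom, 2 with a limma-voom replicate block (Gabarapl1 in female diaphragm and male soleus) and 0 without replicate 8. Sex by age gave 3 calls with DESeq2 and 2 with the replicate block (Bnip3 in tibialis anterior and Ctsl in soleus). The causes were not tested. The other values without replicate 8 were 51 and 35 for pathway genes, 21 over the ages, 55 between muscles, 20 between sexes and 1 for sex by age. The shares of all genes called under these alternatives were not computed. The counts thus show how calls moved, not how members stood against all genes. Same-numbered samples were not shown to pair: their deviations correlated at a median of 0.156 to 0.227 between limb muscles (-0.032 to -0.030 for other numbers), with 61.2% to 71.3% of same-numbered pairs over 0.1 and not every pair, and at 0.007 to 0.019 with diaphragm. The block added Lamp2 in male tibialis anterior (0.13, adjusted p = 0.0202) and lost Map1lc3b there (0.20, adjusted p = 0.05) and Tfeb in female tibialis anterior (-0.13, adjusted p = 0.107). In these fits by age the block joins samples of different ages, which are different mice, as mice were killed at collection. The 6-month groups held no replicate 8, so the block also takes up part of that library. It is therefore no test of pairing. Becn1 in male gastrocnemius was lost under 7 of 12 alternatives. Leaving out the GC-apart libraries added Gabarapl1 (0.28), Bnip3 (0.15) and Lamp2 (0.098) in female gastrocnemius, all higher. It also added Ctsl in female diaphragm, which was lower, as given above. The edgeR block over all libraries of the 4 muscles was not run. Depth did not limit the members outside the GC-apart diaphragm libraries, in which Tfeb rested on as few as 2 counts.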
